A study of Homo sapiens with 14 samples.

Results

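The BCL2 family decides whether a cell opens its mitochondrial outer membrane, and 10 of its genes were followed in IMR90 cells while mitochondrial DNA replication was blocked. They were picked by gene symbol and are the anti-apoptotic BCL2, BCL2L1 and MCL1, the effectors BAX and BAK1, and the BH3-only genes BBC3, PMAIP1, BCL2L11, BID and BAD. They are 10 of the 27142 genes in the count table, and all 10 were among the 13371 genes with enough reads to be tested.

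IMR90 is an established line of fibroblasts from human fetal lung, here of wild-type (WT) genotype. Untreated cells (2 libraries) received water, and the other cells received 20 uM 2'3'-dideoxycytidine (ddC), a cytidine analog that ends the growing DNA chain and is used to deplete mitochondrial DNA, for 24, 48, 72 or 96 h (3 libraries each). All cells grew in EMEM medium with serum, and the design text calls the libraries biological replicates. Polyadenylated RNA was sequenced with strand information. The untreated cells are given as 0 h in the design text and as 4 days in their labels, so their time in culture is not known.

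Effectors form pores in the mitochondrial outer membrane, which releases cytochrome c and starts the caspase cascade. Anti-apoptotic members hold the effectors and the BH3-only proteins in check, and BH3-only proteins relay stress signals by binding them or by activating the effectors. Several of these genes, BBC3, PMAIP1 and BAX among them, are known transcriptional targets of p53, while MCL1 and BCL2L11 are also regulated through the stability of their proteins. The counts are of RNA per gene, so protein levels, and the long and short splice forms of BCL2L1 and of MCL1, which act in opposite ways, were not analysed here.

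Of the 10 genes, 4 rose at 96 h, and the sequence just upstream of each is shown because these are the members on which the results turn. RefSeq (GRCh38.p14) promoter entries were found for 9 of the 10 genes, all but MCL1. The 250 bases before the annotated start are printed from 5′ to 3′ on the strand of the gene, with the first of 2 entries for BCL2L1. Capitals mark the E-box CACGTG, the cAMP response element half-site TGACG on either strand (CGTCA where it lies on the other strand), the amino acid response element core TGATGNAA and the p53 half-site.
BBC3, chr19:47232668-47232917, minus strand: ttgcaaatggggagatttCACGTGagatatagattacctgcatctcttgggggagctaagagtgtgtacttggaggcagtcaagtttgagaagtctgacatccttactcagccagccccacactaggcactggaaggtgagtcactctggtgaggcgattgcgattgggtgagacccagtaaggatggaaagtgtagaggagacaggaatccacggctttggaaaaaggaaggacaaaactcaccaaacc
PMAIP1, chr18:59899746-59899995, plus strand: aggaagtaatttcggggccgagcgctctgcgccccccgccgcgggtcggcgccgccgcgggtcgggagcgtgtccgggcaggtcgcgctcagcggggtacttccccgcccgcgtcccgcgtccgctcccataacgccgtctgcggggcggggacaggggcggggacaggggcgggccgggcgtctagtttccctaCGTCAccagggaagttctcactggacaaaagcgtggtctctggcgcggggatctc
BAX, chr19:48954625-48954874, plus strand: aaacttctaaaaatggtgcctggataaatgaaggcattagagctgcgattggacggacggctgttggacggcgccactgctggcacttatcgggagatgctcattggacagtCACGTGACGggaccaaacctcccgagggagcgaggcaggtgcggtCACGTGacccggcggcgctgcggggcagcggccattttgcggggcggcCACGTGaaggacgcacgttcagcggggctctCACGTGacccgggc
BCL2L1, chr20:31723964-31724213, minus strand: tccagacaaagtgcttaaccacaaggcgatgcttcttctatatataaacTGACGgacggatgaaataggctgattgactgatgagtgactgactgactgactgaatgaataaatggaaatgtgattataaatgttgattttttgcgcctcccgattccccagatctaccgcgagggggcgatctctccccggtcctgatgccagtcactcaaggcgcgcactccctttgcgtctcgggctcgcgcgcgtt

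The BAX stretch held 4 copies of CACGTG, with first bases at -138, -93, -45 and -14 counted back from the start, and the first copy overlaps a TGACG. BBC3 held 1 copy, at -232. Neither PMAIP1 nor BCL2L1 held one, and each had a single TGACG, at -55 on the other strand for PMAIP1 and at -201 for BCL2L1. Only the first entry of each gene was searched, of 5 for BID and of 2 each for BAD and BCL2L1. In these entries the p53 half-site was found upstream of BAK1 alone among the 9 genes, at -73, and TGATGNAA upstream of none. Across all 35116 RefSeq promoters of this length on both strands, 6.34% held CACGTG, 21.2% TGACG, 5.57% the p53 half-site and 3.14% TGATGNAA. CACGTG, a palindrome that counts once, was searched for after the sequences had been seen. A match describes the letters and not a bound site, and sites farther from these starts were not searched.

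Total counts ran from 9398703 to 12147402 per library. The fibroblast markers were abundant, with COL1A1 at 15694 to 22846 CPM (counts scaled to 1e6 per library with edgeR's TMM factors), and the 6 fibroblast markers together gave 37404 to 40750 CPM at 96 h, against 31839 to 32722 CPM in untreated cells. The 5 epithelial markers summed to 71.4 to 78.4 CPM at 96 h and 54.7 to 55.5 CPM in untreated cells, most of it from KRT18 (39.5 to 61.3 CPM over all libraries), with no read of the defining CDH1. The 5 endothelial markers summed to 38.3 to 42.9 CPM at 96 h and 39.5 to 45.7 CPM in untreated cells, nearly all from TEK, with PECAM1 and CDH5 at 0 throughout. The 5 blood markers summed to 48.0 to 49.98 CPM at 96 h and 51.3 to 53.7 CPM in untreated cells, nearly all from CD68, with CD3E and MS4A1 at 0 throughout. The fibroblast and epithelial sums thus moved with the 96 h group, and their part in the results below was not tested. A further measure, whose origin is not known, also moved with time. The antisense index, reads on weakly expressed opposite-strand neighbours per 1000 reads of abundant genes, was 1.06 to 1.16 in all 72 h and 96 h libraries and in 48 h replicate 3, and 0.782 to 0.931 in the untreated, 24 h and other 48 h libraries. Every 96 h library is therefore in one set and every untreated library in the other, and within that comparison the set and ddC cannot be told apart. The nuclear RNA MALAT1 varied within every group, from 52.1 to 409 CPM over all libraries.

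Per kilobase of listed transcript, the members spanned a wide range of levels in these fibroblasts. BAX stood highest with a median of 129 CPM per kb over the 14 libraries, followed by MCL1 with 80.6 CPM per kb. BCL2L1 at 29.4, BID at 25.4, BAD at 24.3 and PMAIP1 at 23.4 CPM per kb followed as a middle group. Their ranges overlapped, 24.0 to 31.9 for BCL2L1, 24.0 to 28.7 for BID, 20.5 to 28.8 for BAD and 18.8 to 27.5 for PMAIP1, so the order of these 4 is not resolved. BBC3 at 5.55 and BAK1 at 4.56 CPM per kb also overlapped, and BCL2L11 at 0.819 and BCL2 at 0.229 CPM per kb came last. BCL2, the founding member, had only 10 to 31 reads per library and BCL2L11 only 33 to 58, so changes in those 2 genes are poorly resolved at this depth.

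**Figure D1:**
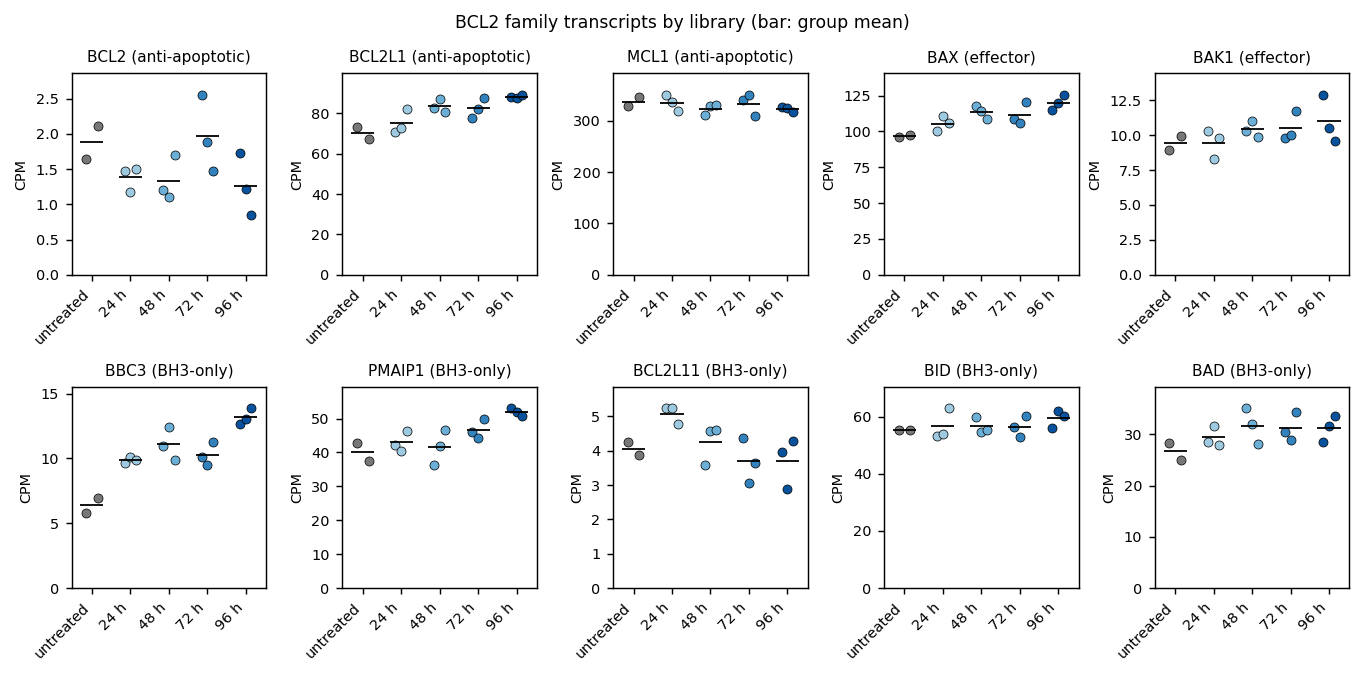
CPM of each of the 10 BCL2 family genes (y axis, from 0) in untreated cells and after 24, 48, 72 and 96 h of ddC (x axis). Points are libraries and bars are group means; BBC3 lies at 12.6 to 13.9 CPM at 96 h and at 5.81 and 6.97 CPM in untreated cells, while MCL1 stays between 309 and 350.4 CPM throughout.

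After 96 h of ddC, BBC3, PMAIP1, BAX and BCL2L1 were higher than in untreated cells, and no member fell. BBC3 was raised 2.06-fold, and the other 3 genes 1.24- to 1.29-fold. These 4 of 10 stand beside 3.57% of all tested genes that rose in the same comparison. Calls are those of edgeR's quasi-likelihood test with p-values adjusted by Benjamini and Hochberg's method over all 13371 genes (threshold 0.05), and each change below is a fitted log2 fold change ± SE with n = 3 at 96 h and n = 2 untreated. In cultures sequenced in bulk, more RNA per cell and more cells carrying that RNA cannot be told apart.

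BBC3 (chr19:47724079-47736023, minus strand, hg19) encodes PUMA, a BH3-only protein that binds every main anti-apoptotic member. It had 12.6, 13.1 and 13.9 CPM at 96 h, against 5.81 and 6.97 CPM in untreated cells. The groups lay far apart relative to their spread, with the lowest 96 h library above the highest untreated one. The change was 1.05 ± 0.14 on the log2 scale (edgeR adjusted p = 8.85e-05), from 146 to 165 reads per 96 h library and 67 to 79 per untreated library. Of the 4 genes, BBC3 alone kept its call under all 12 other ways of processing that were run, leaving out each library included, with changes of 0.92 to 1.29 and adjusted p of at most 0.00892.

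PMAIP1 (chr18:57567192-57571538, plus strand, hg19) encodes NOXA, a BH3-only protein that acts chiefly on MCL1. It had 53.1, 51.8 and 50.6 CPM at 96 h, against 42.9 and 37.5 CPM in untreated cells, and the 96 h libraries were all higher. The change was 0.37 ± 0.10 (adjusted p = 0.0260). This call depended on every library of the comparison, since leaving out 96 h replicate 1, 2 or 3 gave an adjusted p of 0.0844, 0.0564 or 0.0600, and leaving out untreated replicate 1 or 2 gave 0.0552 or 0.350. With the antisense-index set as a term in the fit the change was 0.11 (adjusted p = 0.809). Only the 48 h group has libraries in both sets, so that term rests on 48 h replicate 3 against 48 h replicates 1 and 2.

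BAX (chr19:49458117-49465055, plus strand, hg19) encodes the effector that moves from the cytosol to the mitochondrion and oligomerises in its outer membrane. It had 115, 119.9 and 125 CPM at 96 h, against 95.9 and 97.2 CPM in untreated cells. All 96 h libraries were higher, and the change was 0.32 ± 0.07 (adjusted p = 0.00885). Without untreated replicate 1 or 2 the adjusted p was 0.0969 or 0.0897, and with the set term it was 0.105 at a change of 0.41.

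BCL2L1 (chr20:30252261-30310901, minus strand, hg19) encodes BCL-XL, an anti-apoptotic member, and its short splice form BCL-XS, which has the opposite action. It had 88.1, 87.5 and 89.2 CPM at 96 h, against 73.4 and 67.2 CPM in untreated cells. The 96 h libraries lay within 2 CPM of one another and above both untreated ones, with a change of 0.33 ± 0.08 (adjusted p = 0.0115). Without untreated replicate 2 the adjusted p was 0.210, and with the set term it was 0.152 at a change of 0.40. The gene ABALON, on the opposite strand of BCL2L1, carried 0.178% as many reads, and no other opposite-strand gene overlapping a member carried any.

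The other 6 members were not called at 96 h. MCL1, an anti-apoptotic protein of short half-life, had 327, 324 and 318 CPM at 96 h, against 328 and 346 CPM in untreated cells. Its 96 h libraries lay just below the untreated ones, with a change of -0.06 ± 0.06 (adjusted p = 0.626). BAK1, the effector that resides in the outer membrane, differed by 0.22 ± 0.15 (adjusted p = 0.437), and its libraries overlapped. BID, which caspase-8 cleaves to link death receptors to mitochondria, differed by 0.10 ± 0.08 (adjusted p = 0.534). BAD, a BH3-only protein that survival kinases hold inactive by phosphorylation, differed by 0.23 ± 0.11 (adjusted p = 0.243). BCL2L11, which encodes BIM, differed by -0.13 ± 0.21 (adjusted p = 0.796), and BCL2 by -0.57 ± 0.34 (adjusted p = 0.373). Counting all members, the 96 h libraries lay wholly above the untreated ones for 6 of 10 (20.6% of all tested genes) and wholly below for MCL1 alone (19.8%).

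The 3 earlier times had no called member. The same edgeR test called 0 members at 24 h, 0 at 48 h and 0 at 72 h, beside 0.0%, 0.00748% and 0.179% of all tested genes called in either direction. DESeq2 also called 0 members at each of these times. At an unadjusted p under 0.05, edgeR gave 1, 4 and 4 members at 24, 48 and 72 h. It gave 3.42%, 6.01% and 7.24% of all genes at these times. DESeq2 gave 1, 3 and 3 members. The share of all genes at an unadjusted p was not counted for DESeq2, so its unadjusted counts lack a background.

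BBC3 was nevertheless higher in each of the 9 libraries of 24, 48 and 72 h than in both untreated ones. It had 9.64, 10.1 and 9.89 CPM at 24 h, 11.0, 12.4 and 9.88 CPM at 48 h, and 10.1, 9.47 and 11.3 CPM at 72 h. The changes from untreated cells were 0.63 ± 0.15 at 24 h (adjusted p = 0.980, unadjusted p = 0.000306), 0.79 ± 0.14 at 48 h (adjusted p = 0.0784) and 0.69 ± 0.14 at 72 h (adjusted p = 0.0511). By unadjusted p it ranked 3 of all genes at 24 h and at 48 h, and 27 at 72 h. The untreated and 24 h libraries and 48 h replicates 1 and 2 belong to the set with the lower antisense index, and 48 h replicate 3 and the 72 h libraries to the other. Without the filter on low counts, or with a covariate for nuclear RNA (a score of MALAT1 and 3 other RNAs), BBC3 was called at 48 h and at 72 h.

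BAX had 100, 111 and 106 CPM at 24 h, 118, 114 and 109 CPM at 48 h, and 108, 106 and 120.3 CPM at 72 h. All of these libraries lay above both untreated ones, and the changes were 0.13 ± 0.07, 0.23 ± 0.07 and 0.21 ± 0.07 (adjusted p = 0.999, 0.827 and 0.411). BCL2L1 had 70.5, 72.5 and 82.4 CPM at 24 h, overlapping the untreated libraries. It had 82.7, 87.0 and 80.7 CPM at 48 h and 77.6, 82.0 and 87.6 CPM at 72 h, above both of them, with changes of 0.25 ± 0.08 and 0.23 ± 0.08 (adjusted p = 0.827 and 0.378). PMAIP1 had 42.1, 40.4 and 46.5 CPM at 24 h, 36.4, 41.8 and 46.7 CPM at 48 h, and 46.1, 44.4 and 49.8 CPM at 72 h. It overlapped the untreated libraries until 48 h and lay above them at 72 h, with a change of 0.22 ± 0.10 (adjusted p = 0.657).

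Libraries of the treated groups lay wholly above the untreated ones for 3 of 10 members at 24 h (7.8% of all tested genes), 3 at 48 h (11.7%) and 5 at 72 h (12.0%), and wholly below for BCL2 alone at 24 h (8.11%). The median log2 fold change of the 10 members was 0.10 at 24 h, 0.11 at 48 h, 0.18 at 72 h and 0.22 at 96 h, where that of all tested genes lay between -0.004 and 0.005 at these times. These 4 comparisons share the same 2 untreated libraries, so they are not independent of one another. MCL1 had 318 to 349.6 CPM at 24 h, 310.2 to 331 CPM at 48 h and 309 to 350.4 CPM at 72 h, and at each of these times its range overlapped that of untreated cells.

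**Figure D2:**
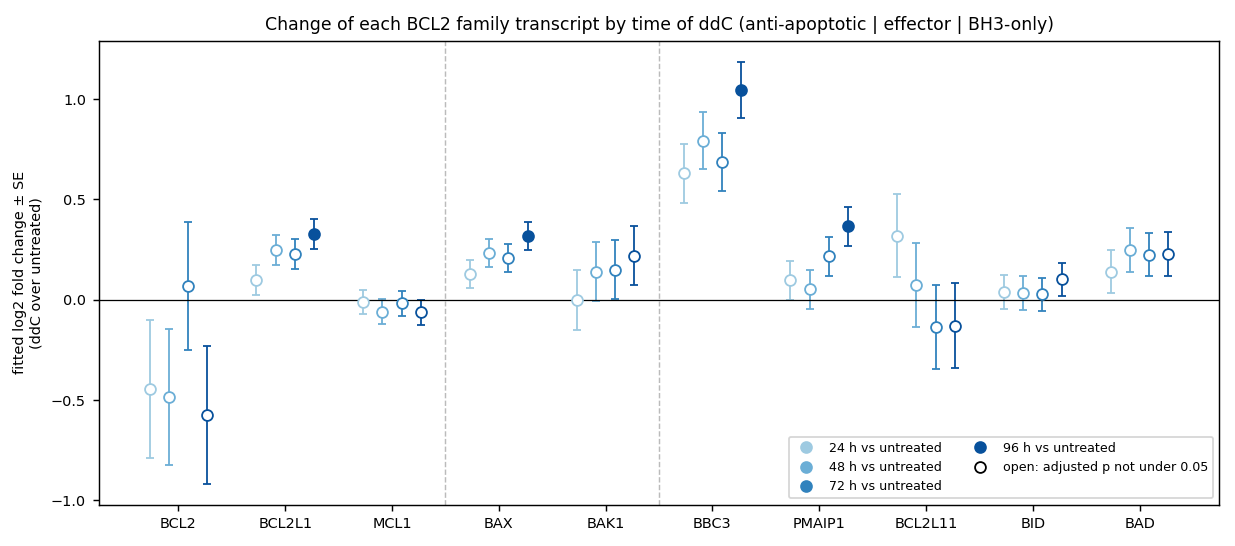
Fitted log2 fold change ± SE (y axis) of each member at 24, 48, 72 and 96 h of ddC over untreated cells, grouped as anti-apoptotic, effector and BH3-only genes (x axis). Filled points have an edgeR adjusted p under 0.05 and occur at 96 h for BCL2L1, BAX, BBC3 and PMAIP1; BBC3 lies between 0.63 and 1.05, and MCL1 between -0.06 and -0.01.

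Comparisons between treated groups asked whether the members differed within the treatment. At 96 h against 24 h, edgeR called 0 members (3.2% of all genes called), as did DESeq2. At an unadjusted p under 0.05 edgeR gave 5 members (15.2% of all genes) and DESeq2 4 (share of all genes not counted). Of these, 4 were higher at 96 h, BBC3 at 0.41 ± 0.12 (adjusted p = 0.0593), PMAIP1 at 0.27 ± 0.09 (0.0964), BCL2L1 at 0.23 ± 0.07 (0.0655) and BAX at 0.19 ± 0.06 (0.116). For all 4 genes the 96 h libraries lay above the 24 h libraries (10.8% of all genes). BCL2L11 went the other way at -0.45 ± 0.19 (adjusted p = 0.231), with 3.98, 2.87 and 4.29 CPM at 96 h, against 5.24, 5.24 and 4.77 CPM at 24 h, and it was the only member with all 96 h libraries below (8.2% of all genes). With the nuclear RNA covariate the 4 higher genes were called, and without 24 h replicate 3 BCL2L1 was called (adjusted p = 0.0149).

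At 96 h against 72 h, where all libraries belong to the set with the higher antisense index, edgeR called 0 members (0.516% of all genes called), as did DESeq2. Unadjusted p under 0.05 were found for 2 members in edgeR (11.5% of all genes) and 1 in DESeq2 (share not counted). BBC3 differed by 0.36 ± 0.12 (adjusted p = 0.212) and PMAIP1 by 0.15 ± 0.08 (adjusted p = 0.502), and in both the 96 h libraries lay above the 72 h ones, as they did for 9.26% of all genes. BCL2 differed by -0.64 ± 0.30 (adjusted p = 0.425) with overlapping libraries.

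**Figure D3:**
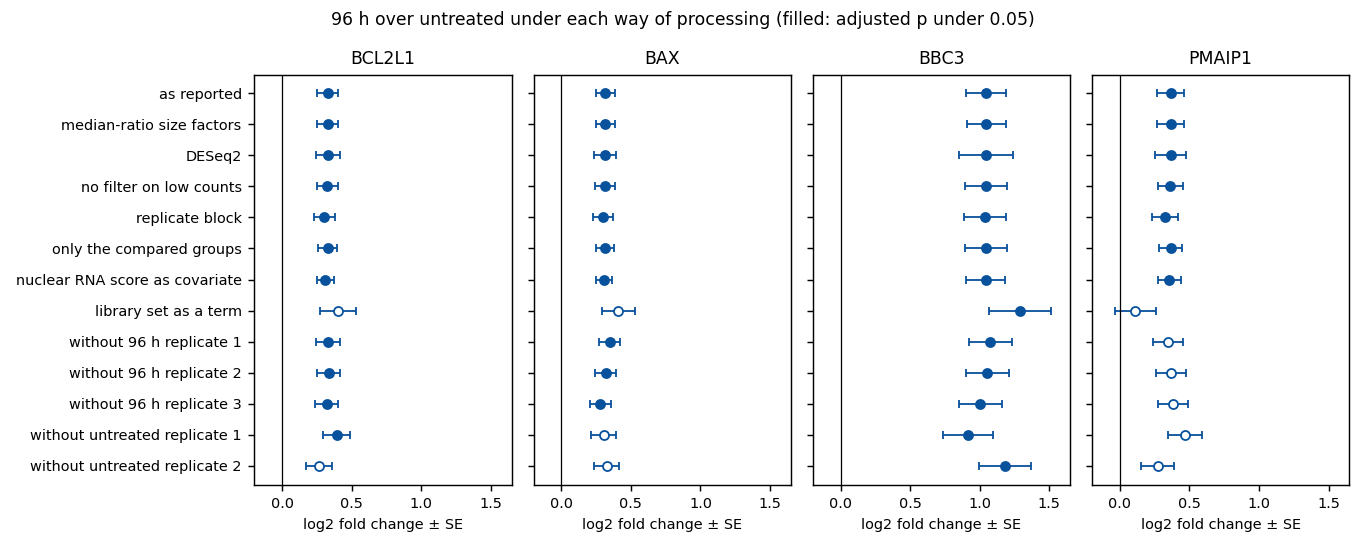
Log2 fold change ± SE (x axis) of the 4 called members at 96 h over untreated cells under each way of processing (y axis). Filled points have an adjusted p under 0.05; BBC3 is filled in every row, whereas PMAIP1 is open with the library set as a term and without any 1 of the 5 libraries.

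Summed by class, the anti-apoptotic transcripts differed by little between groups, while the effector and BH3-only sums were higher at 96 h than in untreated cells. These sums are in CPM per kb of listed transcript, were not tested, and are dominated by MCL1 among the anti-apoptotic genes and by BAX, at 95.8% to 97.2% of the sum, among the effectors. The anti-apoptotic sum was 108, 109, 109, 111 and 111 CPM per kb in untreated cells and at 24, 48, 72 and 96 h. The effector sum at 96 h was 146 ± 5.47 CPM per kb, against 118 ± 1.34 in untreated cells (SD, n = 3 and 2), and the BH3-only sum was 87.5 ± 2.96 against 72.2 ± 3.53. In both classes every 96 h library lay above every untreated one.

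The anti-apoptotic share of the summed level of all 10 genes was 32.2% ± 0.97 at 96 h and 36.3% ± 0.61 in untreated cells. Within the anti-apoptotic members MCL1 held 71.4% ± 0.43 at 96 h and 76.5% ± 1.75 in untreated cells, the remainder being almost wholly BCL2L1. The anti-apoptotic BCL2L2, at 64.29 to 77.45 CPM, is not among the 10 genes and is in none of these sums or shares. The ratio of BAX to BCL2L1 per kb was 4.48 ± 0.17 at 96 h and 4.53 ± 0.32 in untreated cells, a difference smaller than the spread between libraries. The ratio of MCL1 to BBC3 per kb was 11.0 ± 0.69 at 96 h and 23.7 ± 2.14 in untreated cells, with no overlap between libraries. It mostly restates the rise of BBC3 given above, since MCL1 changed by only -0.06 ± 0.06 on the log2 scale.

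**Figure D4:**
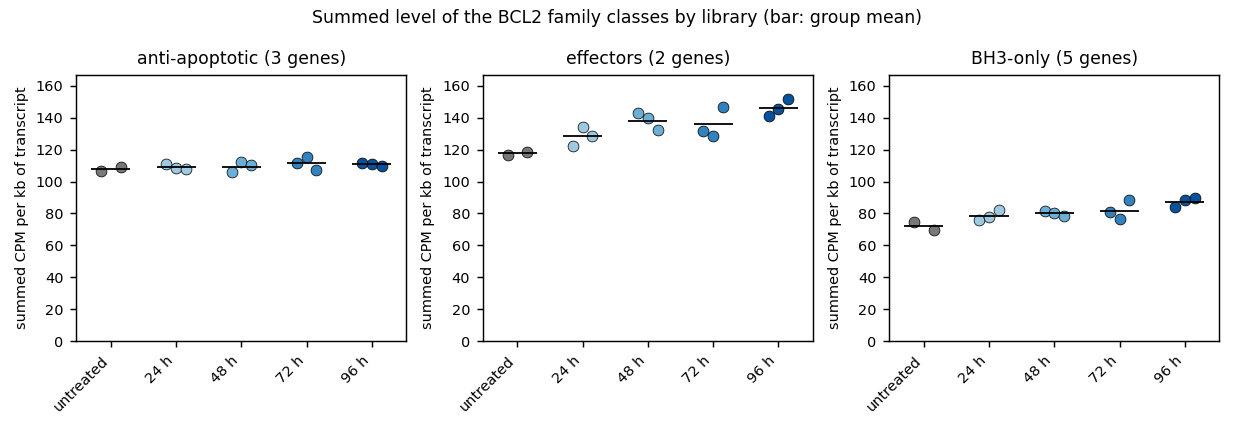
Summed level of the anti-apoptotic (BCL2, BCL2L1, MCL1), effector (BAX, BAK1) and BH3-only (BBC3, PMAIP1, BCL2L11, BID, BAD) genes in CPM per kb of transcript (y axis, from 0) by group (x axis). Points are libraries and bars are group means; the anti-apoptotic sum stays at 106 to 115 CPM per kb, and the effector sum is 141 to 152 at 96 h and 117 and 119 in untreated cells.

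Across the 14 libraries, BBC3 followed BAX most closely among the members, with a Pearson r of 0.90 between their log2 CPM, and BCL2L1 followed BAX with r = 0.84 and BBC3 with r = 0.79. PMAIP1 was less like BBC3 (r = 0.52) and BAX (r = 0.48). MCL1 ran opposite to BID (r = -0.81), though neither gene was called in any comparison. These points share the 5 groups and the library sets, and the correlations describe these libraries only. The libraries also differed in MALAT1 within groups, and the part of that variation in the correlations was not tested. Each called member was also compared with 11988 genes whose average log2 CPM reached 1. A set list of sex-linked genes was left out. Those most like BBC3 were BTG2 (r = 0.946), an antiproliferative gene, FDXR (0.929), a mitochondrial ferredoxin reductase, and PINK1 (0.926), a kinase of mitochondrial quality control. Those most like BAX were PHLDA3 (0.943), RRAS (0.941) and BTG2 (0.934). Those most like BCL2L1 were ATG13 (0.931), CCDC92 (0.918) and SLC44A2 (0.900), and those most like PMAIP1 were FERMT2 (0.910), JAZF1 (0.909) and CDH11 (0.905).

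CDKN1A, the p53 target that encodes the cell cycle inhibitor p21, was set beside the p53-regulated members. It had 856, 878 and 903 CPM at 96 h, against 450.0 and 429.5 CPM in untreated cells, a change of 1.00 ± 0.08 (adjusted p = 3.05e-07). Its size at 96 h was close to that of BBC3 on the log2 scale. CDKN1A was called already at 48 h with 0.55 ± 0.08 (adjusted p = 0.0106) and at 72 h with 0.61 ± 0.08 (adjusted p = 0.000990). No member was called at these times, but the fitted changes of BBC3 were not smaller, at 0.79 ± 0.14 and 0.69 ± 0.14. BBC3 had a mean of 11.1 CPM at 48 h, against 643 CPM for CDKN1A, so the order of the calls does not give the order of the changes. At 24 h the CDKN1A change of 0.42 ± 0.08 was not called by edgeR (adjusted p = 0.378) but was by DESeq2 (0.00719). The 48 h call of CDKN1A ended without 48 h replicate 1 (adjusted p = 0.0573), untreated replicate 1 (0.185) or untreated replicate 2 (0.523), and the 72 h call without untreated replicate 2 (0.0899) or with the library set as a term (0.163).

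Of the rest of the BCL2 family, BCL2A1, BCL2L10, BIK, HRK, BCL2L14 and BCL2L15 had at most 7 reads in any library and were not tested. BMF, a BH3-only gene, had 6.41 ± 0.33 CPM at 96 h and 9.35 ± 1.75 CPM in untreated cells, a change of -0.54 ± 0.17 that missed the threshold (adjusted p = 0.0568). BOK, an effector-like member, had 53.6 ± 5.74 CPM at 96 h and 41.8 ± 2.41 CPM in untreated cells (0.36 ± 0.12, adjusted p = 0.0931). BMF and BOK did pass the threshold with the compared groups alone (adjusted p = 0.0217 and 0.00352), BMF with the nuclear RNA covariate (0.0189), and BOK with the library set as a term (0.0483) or without 96 h replicate 2 (0.0479). The anti-apoptotic BCL2L2 differed by 0.06 ± 0.08, BCL2L12 by 0.09 ± 0.10 and BCL2L13 by 0.09 ± 0.07, none of them called.

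Among 61 other genes of the apoptosis pathway, in 9 lists that include those just named, 50 were tested. At 96 h 6 of the 50 rose (beside 3.57% of all tested genes), 2 fell (beside 2.11%) and 42 were not called. DESeq2 called 10 at 96 h, where it called 461 of all genes higher and 322 lower. At 24, 48 and 72 h edgeR and DESeq2 each called 0 of the 50. At an unadjusted p under 0.05 edgeR gave 7, 9 and 10, beside 3.42%, 6.01% and 7.24% of all tested genes. DESeq2 gave 3, 6 and 9, with its share of all genes not counted. The median log2 fold change of the 50 at 96 h was 0.04, against -0.004 for all genes.

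Downstream of the mitochondrion, the caspases and apoptosome genes had 0 rises and 1 fall among 7. CASP2, an initiator caspase, fell by 0.30 on the log2 scale (adjusted p = 0.0131), while APAF1, the apoptosome scaffold, differed by -0.02 ± 0.08. In the list of inhibitor of apoptosis proteins and their antagonists, which also holds AIFM1 and ENDOG, none of the 9 genes was called. XIAP and DIABLO were among these 9. In the death receptor arm 2 of 10 rose, beside the same 3.57% of all genes. They were FAS at 0.51 ± 0.09 (adjusted p = 0.00160), with 67.4 ± 5.02 CPM at 96 h and 47.5 ± 2.28 CPM in untreated cells, and the TRAIL receptor TNFRSF10B at 0.28 ± 0.06 (adjusted p = 0.00443). BID, CASP8 and FADD, which join that arm to mitochondria, were not called.

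Of the genes for mitochondrial channels and their partners, 1 of 7 rose, the outer membrane protein TSPO at 0.35 ± 0.10 (adjusted p = 0.0475). Among upstream transcriptional regulators 3 of 7 rose and 1 fell. MDM2, the ubiquitin ligase of p53, rose by 0.33 ± 0.07 (adjusted p = 0.00479). ATF4, a stress-response transcription factor, rose by 0.32 ± 0.06 (adjusted p = 0.00114), and the ATF4-induced TRIB3 by 0.62 ± 0.10 (adjusted p = 0.000501). E2F1, a driver of S-phase entry, fell by 0.59 (adjusted p = 0.000343). None of the 5 tested genes that control the stability of MCL1 protein was called. Their changes ran from -0.52 for the ubiquitin ligase HUWE1 to -0.10, all below 0, as were those of 6792 of all 13371 tested genes. With the library set as a term, TRIB3 alone of these 8 stayed past the threshold (adjusted p = 0.0376). Leaving out untreated replicate 2 ended the calls of FAS (adjusted p = 0.0635) and TNFRSF10B (0.101), and leaving out untreated replicate 1 those of MDM2 (0.104) and ATF4 (0.0508). The call of CASP2 ended without 96 h replicate 3 or either untreated library (up to 0.168), and that of TSPO without any 1 of the 5 libraries (0.0504 to 0.249) or with the replicate block (0.0907).

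**Figure D5:**
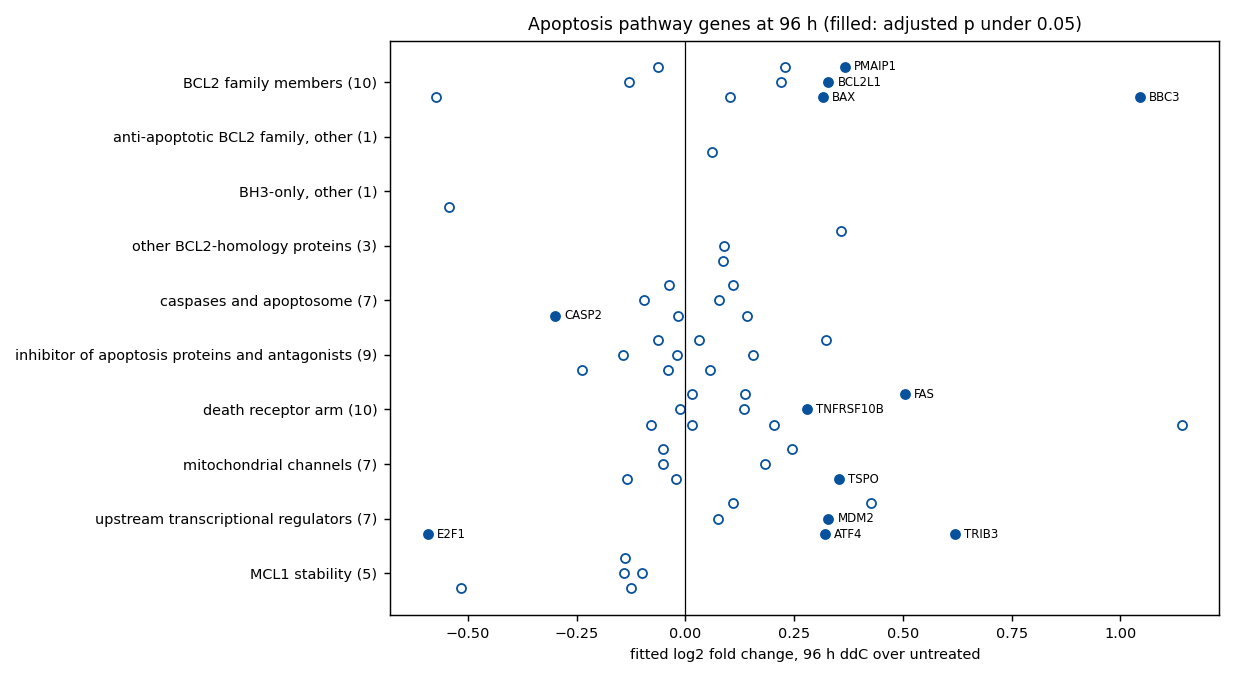
Fitted log2 fold change at 96 h of ddC over untreated cells (x axis) for every tested gene of the BCL2 family and of 9 apoptosis pathway lists (y axis, number tested in brackets). Filled, named points have an edgeR adjusted p under 0.05; they are the 4 members, 6 pathway genes above 0 and 2 below 0.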

How the data were processed

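Polyadenylated RNA of 14 IMR90 cultures was sequenced. The authors deposited raw read counts per gene, integers with a listed transcript length, made with STAR 2.5.3a and HOMER on hg19, per the submitters' processing notes; the strand setting and filters are not given in the sources used here. Coordinates and lengths in the deposited table are on hg19, and no row lacked a gene name.

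Counts were analysed with edgeR 4.0.16 in R 4.3.3: TMM factors, filterByExpr (minimum count 10, minimum total 15), and 1 robust quasi-likelihood model with a mean for each group over all 14 libraries. SE is the size of a change over the root of its F statistic. Tests were two-sided, adjusted by Benjamini-Hochberg over all 13371 tested genes, and called under 0.05. CPM are counts divided by TMM-scaled totals, times 1e6. The script was tested on simulated data.

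Alternatives were median-ratio size factors, DESeq2 1.42.0, no filter, a replicate block, the compared groups alone, a nuclear RNA score averaging log2 CPM over KCNQ1OT1, MALAT1, MEG3 and NEAT1, the library set (7 libraries with the higher antisense index, from 269 gene pairs, against 7) and leaving out each library of the groups compared. With 1 untreated library left, it is assumed to vary like the other groups.

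Genes named are the 10 members, the other family genes, pathway genes called in any comparison or singled out by role after their values were seen, CDKN1A, and the 3 genes of highest Pearson r (log2 CPM, prior count 3) to each member called at 96 h. Members, lists, rules and alternatives were chosen with earlier results of these data known.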

Additional observations from a re-analysis of the deposited data

Results flagged for a closer look

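None of the 10 members was called between treated groups. Set beside them were CDKN1A and the 50 tested pathway genes. Of these genes, 6 differed between treated times in edgeR's quasi-likelihood test (adjusted p under 0.05, n = 3 each). That test called 3.2% of all tested genes at 96 h against 24 h and 0.516% at 96 h against 72 h. At 96 h against 24 h the log2 fold change was 0.58 for CDKN1A, 0.31 for FAS, 0.23 for the decoy receptor TNFRSF10D, 0.34 for TSPO, 0.26 for ATF4 and 0.38 for TRIB3. Against 72 h it was 0.38 for CDKN1A. In each of these comparisons every 96 h library lay above every library of the earlier time. The same held for 10.8% of all tested genes against 24 h and for 9.26% against 72 h. With the library set as a term, FAS, TNFRSF10D, TSPO, ATF4 and TRIB3 were no longer called at 96 h against 24 h, and CDKN1A was still called in both comparisons. With the compared groups alone FAS (adjusted p = 0.0916) and TSPO (0.102) also lost the call, as did TSPO with the replicate block (0.0569). Leaving out 1 library ended the call of FAS (24 h replicates 1 and 2, 96 h replicates 1 and 2; adjusted p up to 0.158), TNFRSF10D (all but 24 h replicate 3; up to 0.120), TSPO (all but 24 h replicate 3; up to 0.215) and TRIB3 (24 h replicate 1, 96 h replicates 2 and 3; up to 0.0655), and that of CDKN1A against 72 h (72 h replicates 1 and 2, 96 h replicates 1 and 3; up to 0.0981). Every 24 h library is in the set with the lower antisense index and every 96 h library in the other.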

How the results depend on the processing

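The 60 log2 fold changes of the members were recomputed 740 times, and 684 kept their direction and their side of the threshold, 11 lost a call, 11 gained one and 34 changed sign. At 96 h against untreated cells the 4 calls held with median-ratio size factors, DESeq2, no filter, the compared groups alone and the nuclear RNA score. With the library set as a term, 1 member (BBC3) and 121 of all genes were called. Every 96 h library is in one set and every untreated library in the other. That contrast therefore rests on the 48 h libraries that link the sets, with 48 h replicate 3 alone in the higher set. Leaving out 1 library left 1 to 3 members and 174 to 620 of all genes, the lowest counts without untreated replicate 2. The 2 untreated libraries and a depth of 9398703 to 12147402 counts limit what can be resolved, above all for BCL2 and BCL2L11.

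Counts of all genes called moved as follows. At 24 h DESeq2, no filter and the nuclear RNA score gave 1 each, and leaving out a library 0 to 1. At 48 h no filter gave 3, the nuclear RNA score 34, the library set 2, and leaving out a library 0 to 2; no filter and the nuclear RNA score each called 1 member, BBC3. At 72 h DESeq2 gave 57 (42 higher, 15 lower, against 19 and 5 in edgeR), no filter 47, the compared groups alone 7, the nuclear RNA score 247, the library set 0, and leaving out a library 1 to 25; no filter called 1 member, BBC3, and the nuclear RNA score 3, BCL2L1, BAX and BBC3. At 96 h the compared groups alone gave 1646 and the nuclear RNA score 1848. For 96 h against 24 h the nuclear RNA score gave 1091 and 4 members, the library set 37, and leaving out a library 223 to 502 and 0 to 1 member. For 96 h against 72 h DESeq2 gave 128 (98 higher, 30 lower, against 61 and 8 in edgeR), no filter 117, the nuclear RNA score 248, and leaving out a library 5 (72 h replicate 2) to 243 (72 h replicate 3). For each of these counts the cause was not tested.

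No change of sign concerned a called value. With the replicate block, MCL1 was 0.0096 at 24 h and 0.0028 at 72 h, BAK1 0.0048 at 24 h and BID -0.0027 at 72 h. With the library set, PMAIP1 was -0.040 at 48 h and -0.038 at 72 h, BCL2 -0.49 at 72 h and BCL2L2 -0.0040 at 96 h. Between 96 h and 72 h the compared groups alone gave -0.0030 for BCL2L11 and -0.0060 for BAD, and the nuclear RNA score -0.035 for BAD. Leaving out a library gave -0.079 to 0.086 for BAK1, -0.050 to 0.029 for MCL1 and -0.040 to 0.077 for BID at 24 h, -0.0084 to 0.054 for BID and -0.043 to 0.15 for PMAIP1 at 48 h, and -0.17 to 0.26 for BCL2, -0.059 to 0.034 for MCL1 and -0.021 to 0.074 for BID at 72 h. At 96 h it gave -0.25 to 0.026 for BCL2L11, -0.023 to 0.15 for BCL2L2 and -0.022 to 0.20 for BCL2L13. Against 24 h it gave -0.42 to 0.095 for BCL2, and against 72 h -0.048 to 0.076 for BAD, -0.11 to 0.17 for BCL2L11 and -0.060 to 0.16 for BAK1. For these too the cause was not tested.

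Whether the replicate numbers pair the libraries was not tested. Of 26 pairs with the same number in different groups, 11 had correlated deviations over 0.1, against 18 of 52 with different numbers. The deviations of the 2 untreated libraries mirror each other, so their pairs are not independent and these counts cannot decide it. With the replicate block 4 members and 687 genes were called at 96 h against untreated cells, 0 members in every other comparison, and 0, 1, 25, 478 and 102 genes at 24, 48 and 72 h and at 96 h against 24 h and 72 h.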
